A study of Mus musculus with 6 samples.

Results

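The microRNA profile of CT26 cells with a knockdown of TGF-β1 was followed over 3 harvest times, 24, 48 and 72 h, with 1 array at each time. CT26 is a mouse colorectal cancer line, and in the knockdown cells it carried a pSUPER gfp-neo vector with a short hairpin RNA against TGF-β1. The same line with the same vector and a control hairpin, also 1 array at each of the 3 times, stands beside it for comparison. Each of the 6 arrays has its own sample label, and the labels number no replicates. The labels word the times as hours of transfection and also call the transfection stable, so the starting point of the times is not settled. Members were the mouse miRNA probes that reached 50, in background-subtracted intensity averaged over 4 spots, on 2 or more of the 3 knockdown arrays. This gave 335 of the 1126 mouse probes on the array. In the control line the same rule gave 366 probes, of which 302 were members in both lines. Of the 335 members, 237 reached 50 on all 3 knockdown arrays and 98 on exactly 2, with 24 h the missing time for 37, 48 h for 17 and 72 h for 44. Just inside the rule lay miR-183-5p, with intensities of 42.3, 94.5 and 50, and just outside it miR-344b-5p, with 23, 49.8 and 508.8. The array holds no probe for the Tgfb1 transcript, so the knockdown itself could not be checked.

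TGF-β1 is a secreted cytokine that signals through a serine and threonine kinase receptor pair to SMAD transcription factors. A microRNA is a short RNA that guides an Argonaute protein to messenger RNAs matching its seed, the stretch near its 5′ end, and lowers their output. The exchange between the TGF-β pathway and microRNAs runs both ways. SMAD proteins promote the maturation of miR-21 in human smooth muscle cells, the miR-200 family represses the epithelial-to-mesenchymal factors Zeb1 and Zeb2, and members of the miR-17-92 family repress the type II TGF-β receptor.

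The sequences below belong to the members on which the time courses turn. They are mature sequences from RefSeq on GRCm38.p6, written 5′ to 3′ with the seed, bases 2 to 8, in capitals. A RefSeq mature sequence was matched by name for 266 member probes, 79.4% of the 335. The first 4 share a seed and belong to the miR-17-92 family and its paralogs, which Myc induces and which promote growth. Their signal was highest at 48 h.
miR-20a-5p: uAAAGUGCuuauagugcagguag
miR-106a-5p: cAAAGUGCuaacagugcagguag
miR-93-5p: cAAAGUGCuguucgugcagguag
miR-106b-5p: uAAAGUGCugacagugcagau
The next 4 share the seed of the miR-15/16 family, which restrains cyclins D and E, and followed the same course.
miR-16-5p: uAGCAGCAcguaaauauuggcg
miR-15a-5p: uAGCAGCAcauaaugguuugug
miR-15b-5p: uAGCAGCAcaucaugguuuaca
miR-195a-5p: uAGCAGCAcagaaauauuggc
The next pair shares the seed of miR-221 and miR-222, repressors of the cell cycle inhibitor Cdkn1b, and was also highest at 48 h.
miR-221-3p: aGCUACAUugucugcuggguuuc
miR-222-3p: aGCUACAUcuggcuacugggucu
Another pair shares a seed but not a course, since miR-882 was highest at 72 h and miR-3473a was lowest then.
miR-882: aGGAGAGAguuagcgcauuagu
miR-3473a: uGGAGAGAuggcucagca
The last 4 include the members with the largest net change in each direction, miR-744-5p and miR-3084-5p, along with miR-541-3p and the other arm of miR-3084.
miR-744-5p: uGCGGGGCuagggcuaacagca
miR-541-3p: uGGCGAACacagaauccauacu
miR-3084-5p: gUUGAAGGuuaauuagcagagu
miR-3084-3p: uUCUGCCAgucuccuucagac

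The knockdown arrays held 344, 370 and 345 mouse probes at an intensity of 50 or more at 24, 48 and 72 h, and the control arrays 374, 321 and 351. Median background was 125, 149 and 89 on the knockdown arrays and lay between 100 and 181 on the control arrays. Before scaling, the median log2 signal of 17 spike-in probes was 9.14, 10.32 and 9.40 in the knockdown line and 10.44, 8.91 and 9.47 in the control line. The median of 10 probes for other small RNAs, snoRNAs and spliceosomal and 5S RNAs, was 9.69, 10.85 and 9.61 in the knockdown line and 9.69, 8.86 and 9.70 in the control line. The 48 h array was therefore the brightest of the knockdown line on both sets and the dimmest of the control line on both. Across the 335 members, which share arrays, labelling and scaling, the Pearson correlation of log2 signal was 0.67 between the knockdown arrays of 24 and 48 h, 0.63 between 24 and 72 h and 0.48 between 48 and 72 h. The knockdown array of 24 h correlated at 0.87 with the control array of 24 h, and that of 48 h at 0.81 with it. The corresponding value for the knockdown array of 72 h was 0.57.

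Signals are given as log2 intensity after normexp background correction and quantile normalisation over all 6 arrays. The brightness of a probe depends on the probe and on labelling, so the ranking describes signal and does not order amounts of different miRNAs. The brightest member was miR-5100, with background-subtracted intensities of 36844, 33758 and 20748 at 24, 48 and 72 h. Quantile normalisation set it to 14.88 on every array, so it carries no information on change. It was followed by miR-3963, which kept 12.44, 12.53 and 12.53. Next came miR-709 at 13.18, 11.61 and 11.24, a probe shared by miR-3096a-3p and miR-3096b-3p at 12.13, 11.55 and 12.32, and miR-690 at 12.62, 11.68 and 11.61. Ranks 6 to 15 were miR-125b-5p, miR-767, miR-5109, miR-1983, miR-21a-5p, miR-207, miR-491-3p, miR-5117-3p, miR-2137 and miR-3098-3p. Among them miR-5109, miR-1983 and miR-2137 belong to a list of probes whose loci overlap structural RNAs. Of the 15, 11 were also among the 15 brightest of these members in the control line. miR-125b-5p, which represses the tumour suppressor p53 in human and zebrafish cells, stood at 11.81, 12.99 and 11.06, with a spot SE of 1.41 on the step from 48 to 72 h. miR-491-3p varied little, at 11.08, 11.00 and 11.02. The same 15 probes came out brightest with no scaling and with the authors' deposited ratios. Median scaling moves all probes of an array alike, so its ranking is that of no scaling and is no separate check.

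Within the knockdown line a change between times compares 1 array with another, so it has no replicate check and no p-value. A 2-fold difference in normalised intensity is used below to describe size, and the standard error over the 4 replicate spots of a probe, called spot SE, covers spot noise alone. From 24 to 48 h, 56 members were higher and 20 lower by at least 2-fold. Among the 433 mouse probes at 50 or more on either array, 20.6% were higher and 6.93% lower. From 48 to 72 h, 43 members were higher and 71 lower, against 12.9% and 23.8% of 441 probes. From 24 to 72 h, 49 were higher and 53 lower, against 15.6% and 14.3% of 435 probes. The median change over members was 0.07, -0.21 and -0.14 on the log2 scale, and the median size regardless of sign was 0.55, 0.70 and 0.69. Changes exceeded 2 spot SE in 195, 236 and 241 members. Of the members past 2-fold, 17, 24 and 27 on the 3 intervals had a side below 50 and were counted at its measured value. Members were selected on the knockdown arrays, so their counts in the control line are not those of a line chosen alike. There, 20 members were higher and 46 lower from 24 to 48 h, against 9.77% and 11.9% of the control line's own 430 probes. From 48 to 72 h, 53 were higher and 28 lower, against 17.3% and 11.3% of 416 probes, and from 24 to 72 h 14 and 22, against 5.8% and 6.52% of 414. In either direction 21.6%, 28.6% and 12.3% of the control line's probes passed 2-fold on the 3 intervals, beside 27.5%, 36.7% and 29.9% in the knockdown line.

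The direction of these counts moved with the scaling. By quantile normalisation, 16.7% of the 335 members were higher and 5.97% lower from 24 to 48 h, and 12.8% higher and 21.2% lower from 48 to 72 h. Scaled to the spike-in probes, 3.88% were higher and 47.8% lower on the first step, and 31.6% higher and 11.9% lower on the second. Scaled to the other small RNA probes, the shares were 4.18% and 46.6%, then 42.7% and 10.1%. With median scaling they were 14.6% and 9.25%, then 19.1% and 20.0%, and with quantile normalisation over mouse probes alone 14.03% and 11.3%, then 17.3% and 17.0%. Cyclic loess gave 20.9% and 3.58% on the first step. From 24 to 72 h the spike-in scaling gave 12.8% higher and 31.0% lower, beside 14.6% and 15.8% by quantile normalisation. The median change over members from 24 to 48 h was -0.97 with spike-in scaling and -0.95 with the other small RNA scaling, so changes below are read against the shift of their own scaling. What sets the brightness of the 48 h array was not tested.

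**Figure D1:**
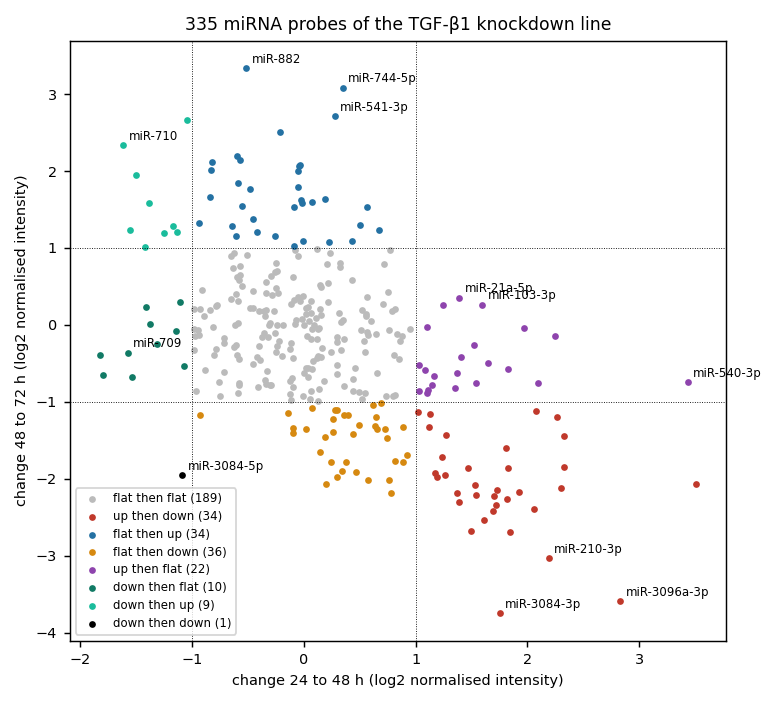
Change from 24 to 48 h (horizontal axis) against change from 48 to 72 h (vertical axis) for the 335 members in the knockdown line, in log2 normalised intensity, with 1 point per probe, colours for the time pattern and dotted lines at 2-fold. No member passed 2-fold upward on both steps, miR-3084-5p alone passed it downward on both, and 34 were higher at 48 h and then lower.

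Over both steps 189 members stayed within 2-fold on each, 36 were lower only on the second step, 34 higher only on the second, 34 higher and then lower, 22 higher only on the first, 10 lower only on the first and 9 lower and then higher. The 34 that were higher and then lower faced a different course in the control line, where 18 of them were lower by at least 2-fold at 48 h and higher again at 72 h. Of all 335 members, 35 took that course in the control line. In 30 of the 34, 48 h was the lowest control value, as it was for 190 of all 335 members, 56.7%. Of the 34, 20 reached 50 on all 3 knockdown arrays.

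Among them the 48 h value lay farthest above the mean of 24 and 72 h for miR-3096a-3p, which stood at 9.21, 12.04 and 8.45 in the knockdown line and at 11.51, 7.77 and 12.84 in the control line. Its 24 to 48 h difference was 7.11-fold, with a change of 2.83 ± 0.66 (spot SE) on the log2 scale. The probe shared by miR-3096a-3p and miR-3096b-3p, at 12.13, 11.55 and 12.32, did not show this course, so the probes disagree. miR-3084-3p stood at 10.42, 12.17 and 8.42, and its last step was 13.4-fold lower, although its spots varied, with a spot SE of 0.90. miR-22-3p, which restrains growth in several tumour types, stood at 9.59, 11.08 and 8.41 and in the control line at 11.20, 8.21 and 11.37. miR-101a-3p, a repressor of Ezh2 in human cancer cells, stood at 7.90, 10.20 and 8.08. In these 4 members the 48 h knockdown value was the highest of the line, and in the same 4 the 48 h control value was the lowest. Their signs on both steps held under the 7 alternatives run for them, 5 of which were scalings. With spike-in scaling miR-3096a-3p still differed by 2.26 and then -3.21.

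miR-210-3p, the microRNA most closely tied to hypoxia through HIF, had raw intensities of 97.5, 1873 and -0.50 and log2 signals of 8.02, 10.22 and 7.18. It was 4.57-fold higher at 48 h and then at least 6.80-fold lower, where "at least" sets a dim probe at the higher of its own value and the lowest signal of a probe at 50 on that array. In the control line it stood at 9.86, 7.20 and 10.87, again with the order turned.

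Members with the AAAGUGC or the AGCAGCA seed followed the 48 h course together. Within each seed the sequences resemble each other, and signal shared between their probes was not tested. For the 4 members with the AAAGUGC seed, the changes from 24 to 48 h lay between 1.53 and 1.72. Of these 4, miR-20a-5p alone was at 50 or more at 72 h, with a change of -2.14 from 48 h. The other 3 were below 50 there and at least 3.71-fold lower for miR-93-5p, 4.18-fold for miR-106a-5p and 4.53-fold for miR-106b-5p. The median change to 48 h was 1.58, beside -1.50 in the control line. miR-20a-5p, named here after its values were seen, had intensities of 361, 2731 and 211 at the 3 times. miR-106b-5p had 106, 1885 and 17.5, and its change to 48 h of 2.90-fold carried a spot SE of 1.21 on the log2 scale. miR-106a-5p had 78.0, 657 and -17.8, with a smaller spot SE of 0.23. The whole list of miR-17-92 and its paralogs held 10 members of 30 probes, of which 7 were higher by at least 2-fold at 48 h, beside 20.6% of all probes, and 6 lower at 72 h, beside 23.8%. Its median changes, which like all list medians take probes below 50 at their measured value, were 1.53 and -1.51, and they kept their sign under spike-in scaling, at 0.56 and -0.997. miR-25-5p, the passenger arm of a cluster member, went the other way and stood at 8.48, 8.05 and 9.25.

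The 4 members with the AGCAGCA seed were higher at 48 h by 0.76 to 1.84. At 72 h miR-16-5p, miR-15a-5p and miR-15b-5p were below 50, the last 2 at least 4.44-fold and 3.43-fold lower than at 48 h. miR-16-5p had intensities of 193, 1630 and 47.3 in the knockdown line and 941, 1.75 and 984 in the control line. It was 3.59-fold higher at 48 h and then at least 6.49-fold lower, and the control values had the opposite order. miR-195a-5p had intensities of 390, 1669 and 88.5 and was 1.70-fold higher and then 4.04-fold lower. Its change to 48 h of 0.76 became -0.09 with spike-in scaling and -0.07 with the other small RNA scaling, where the member medians were -0.97 and -0.95. The other 2 members of the miR-15/16 list were lower at 48 h than at 24 h, miR-503-3p at 10.34, 9.74 and 9.36 and miR-503-5p at 8.95, 8.63 and 8.47. The list's median from 24 to 48 h was 1.01, and 0.08 with spike-in scaling, which is small in its own scale but above the member median of -0.97.

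miR-221-3p stood at 7.76, 9.59 and 7.72 and miR-222-3p at 8.31, 10.01 and 7.60, both highest at 48 h. At 72 h miR-222-3p was below 50, so only a bound holds for its last step. In the control line miR-222-3p stood at 9.64, 7.36 and 11.99. The 2 miRNAs lie together at chrX:19146307-19146923 on the minus strand. miR-221-5p, the other arm of the first, stood at 9.55, 8.40 and 8.33 and did not share the course.

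Among the clusters of the genome, the miR-17-92 hairpins at chr14:115043721-115044496 on the plus strand held 4 members, miR-17-3p, miR-20a-5p, miR-19b-3p and miR-92a-3p. Their changes to 48 h ran from 0.13 to 1.81, the smallest being miR-17-3p. The paralogous miR-25, miR-93 and miR-106b hairpins at chr5:138165332-138165807 on the minus strand held 5 members, with changes to 48 h from -0.42 to 1.82. The miR-16 and miR-15a hairpins at chr14:61631936-61632096 on the minus strand held 2 members, at 1.84 and 1.39. Mature miR-16-5p also comes from a hairpin on chromosome 3 beside miR-15b, so its probe reads both loci.

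The miR-30 family, repressors of the mesenchymal factor Snai1 and of Ctgf, had 7 members of 11 probes. miR-30e-5p stood at 7.65, 9.97 and 8.13, a 5.00-fold difference at 48 h with a spot SE of 0.30, and miR-30d-5p at 8.08, 10.00 and 7.83. miR-30c-5p, the brightest of them, stood at 10.35, 10.69 and 8.79 and was 2.94-fold lower net. The list's median from 24 to 48 h was 0.89 but turned to -0.13 under spike-in scaling and -0.11 under the other small RNA scaling, while from 48 to 72 h it was negative in quantile normalisation and the 5 other scalings, between -2.19 and -0.95.

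The let-7 family, repressors of Ras genes, Hmga2 and Lin28, had 9 members of 20 probes, all at 50 or more on the 3 knockdown arrays. Its members split although 7 of them share the GAGGUAG seed. let-7g-5p stood at 8.96, 10.66 and 8.43, a 3.24-fold difference at 48 h with a spot SE of 0.57, and in the control line at 10.66, 8.10 and 10.60. let-7c-5p stood at 9.77, 9.81 and 10.04 and let-7a-5p at 8.62, 9.18 and 9.09, with control values of 8.42, 10.93 and 8.27. let-7d-3p, a passenger arm, was 1.47 lower net, at 9.66, 8.77 and 8.19. The let-7 median from 48 to 72 h was -0.86 but 0.15 with the other small RNA scaling.

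The miR-297, miR-466, miR-467 and miR-669 families are rodent miRNAs, many of them encoded in an intron of Sfmbt2, and had 27 members of 69 probes. By RefSeq 21 of the 27 have a locus in Sfmbt2, and 6, namely miR-669n, miR-466q, both arms of miR-466i, miR-467f and miR-467g, have loci elsewhere alone. From 48 to 72 h, 25 of the 27 were lower, as were 198 of all 335 members. Of the 27, 17 were lower by at least 2-fold, beside 23.8% of all probes. From 24 to 72 h 11 were lower by at least 2-fold, beside 14.3%. Of the 21 with a locus in Sfmbt2, 13 and 9 were lower by at least 2-fold on these intervals. The median changes over the 27 were -1.17 and -0.84, and both stayed negative in the 5 other scalings, at -0.34 and -1.14 with the other small RNA scaling. miR-669a-3-3p stood at 9.83, 10.02 and 7.95 with a spot SE of 0.07 on the net change, and miR-669p-3p at 9.48, 9.77 and 7.80. The summed intensity of the families' 69 probes was 9332, 12520 and 3454 in the knockdown line and 10441, 7159 and 7222 in the control line. Such sums are of background-subtracted intensity without negative values and are not scaled between arrays, so they carry the differing brightness of the 48 h arrays. Sequences of these families resemble each other, and signal shared between its probes was not tested.

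**Figure D2:**
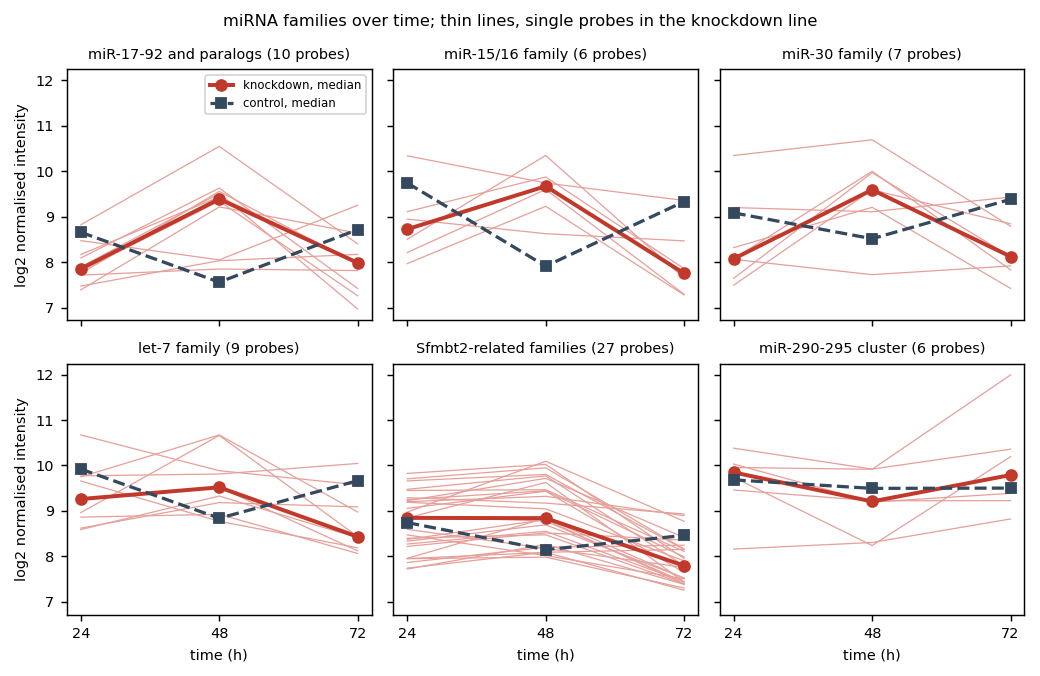
Log2 normalised intensity over time (h) for 6 miRNA families, with 1 thin line per member probe of the knockdown line, thick solid lines for its median and dashed lines for the control line's median over the same probes. The miR-17-92, miR-15/16 and miR-30 medians peaked at 48 h in the knockdown line, where the control medians were at their lowest, and the median of the Sfmbt2-related families was lowest at 72 h.

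A separate set was highest at 72 h. miR-744-5p, which represses TGFB1 messenger RNA in human kidney cells, had raw intensities of 51.3, 106.5 and 2225 in the knockdown line and 113, 164 and 4.25 in the control line. Its log2 signal was 7.71, 8.06 and 11.15, so it was 10.8-fold higher at 72 h than at 24 h, a change of 3.43 ± 0.39 (spot SE). The 72 h knockdown array alone was high, and the 5 other arrays lay between 7.37 and 8.33. Under the 7 alternatives the net change stayed positive, from 3.11 with spike-in scaling to 6.45 with plain background subtraction.

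miR-541-3p stood at 7.84, 8.12 and 10.83 and was 7.93-fold higher net, beside 9.24, 8.67 and 9.24 in the control line. It lies in the imprinted Dlk1-Dio3 region, where most of its neighbours did not follow it. miR-882, at chr12:109682207-109682228, stood at 9.26, 8.75 and 12.09 and was 7.08-fold higher net, while the control line went from 9.33 to 8.90. miR-875-3p stood at 9.95, 9.73 and 12.25 against control values of 9.89, 9.22 and 9.42. miR-290-5p, from the miR-290-295 cluster of embryonic stem cells, stood at 9.96, 9.92 and 11.99 and was 4.10-fold higher net, with a spot SE of 0.09. In the control line it was highest at 48 h, at 11.37. Each of these 5 members was high on the 72 h knockdown array, and their net changes were positive under all 7 alternatives. Other members higher by about 2 log2 units at 72 h than at 24 h were miR-450a-1-3p at 8.24, 8.80 and 10.33 and miR-5625-3p at 7.94, 7.89 and 9.96.

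miR-21a-5p, which represses Pdcd4 and is raised in colorectal tumours, stood at 10.14, 11.52 and 11.88 in the knockdown line. The step to 48 h was 2.62-fold, with a spot SE of 0.32, and the net change 3.35-fold. In the control line it stood at 10.93, 12.17 and 10.79, so both lines were higher at 48 h and the lines parted at 72 h. Its other arm, miR-21a-3p, stood at 8.21, 8.43 and 9.51. miR-31-5p, also raised in colorectal tumours, stood at 9.94, 11.13 and 9.15 and was lower net. miR-103-3p, from introns of the Pank genes, stood at 8.02, 9.61 and 9.87, a 3.62-fold net difference, while its control values held at 8.54, 8.40 and 8.52. miR-540-3p was below 50 on the 24 h knockdown array and on all 3 control arrays, and at 48 h its intensity of 1342 was at least 6.07-fold higher.

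**Figure D3:**
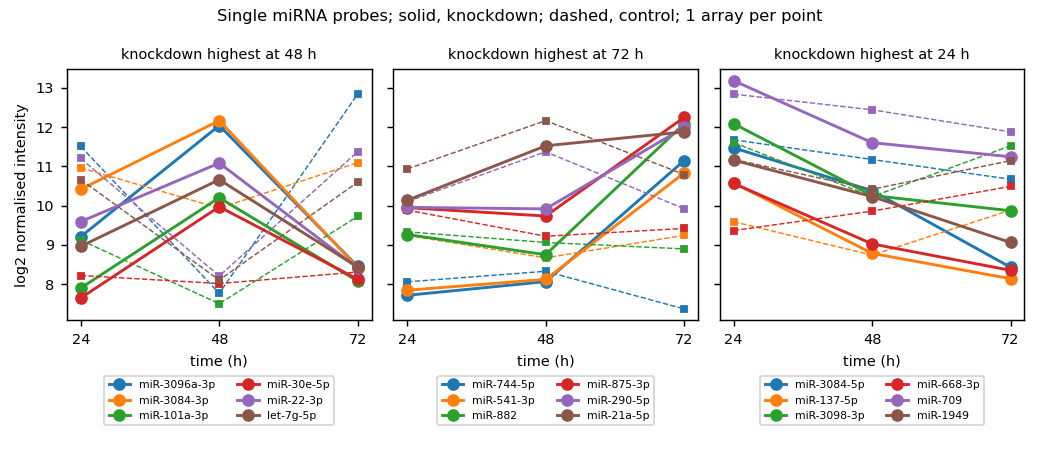
Log2 normalised intensity over time (h) of 18 member probes, with solid lines and circles for the knockdown line, dashed lines and squares for the control line and 1 array per point. Left, members highest at 48 h in the knockdown line, middle, members highest at 72 h, and right, members highest at 24 h. miR-3084-5p went from 11.47 to 8.43 and miR-744-5p from 7.71 to 11.15.

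The highest values of a further set came at 24 h. miR-3084-5p stood at 11.47, 10.38 and 8.43 and was the only member lower by at least 2-fold on both steps, 2.13-fold and then 3.87-fold, with a net 8.24-fold difference and a spot SE of 0.17. Its control values were 11.68, 11.18 and 10.67, lower with time by less. miR-137-5p stood at 10.58, 8.78 and 8.14, a 5.43-fold net difference, and miR-3098-3p at 12.09, 10.26 and 9.87. miR-668-3p stood at 10.57, 9.02 and 8.35, while its control values of 9.37, 9.86 and 10.49 ran the opposite way. miR-709 stood at 13.18, 11.61 and 11.24 and was lower over time in the control line too, at 12.84, 12.44 and 11.88. The net changes of these 5 members were negative under all 7 alternatives. miR-710 was lowest at 48 h, at 11.00, 9.38 and 11.72, and was the reverse of its control values of 10.54, 11.68 and 10.55. miR-433-5p, at 9.42, 8.37 and 11.03, and miR-290-3p, at 9.74, 8.24 and 10.19, shared that dip.

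Both arms of a hairpin were members in 32 cases, and the arms changed with the same sign in 17 from 24 to 48 h, 20 from 48 to 72 h and 20 from 24 to 72 h. In 2 of the 32 both arms passed 2-fold with the same net sign. miR-3084 was such a case, with its arms together at 8.43 and 8.42 at 72 h but apart at 48 h, at 10.38 and 12.17. In the list for the Dlk1-Dio3 region 21 of 106 probes were members, and net 6 were higher and 5 lower by at least 2-fold, beside 15.6% and 14.3% of all probes. The members miR-882 and miR-3544-3p lie within the span of the list's members by RefSeq but are not in the list, and with them 7 of 23 were higher and 5 lower. The 12 members at chr12:109713503-109747949 on the plus strand ranged from -2.21 for miR-668-3p to 2.99 for miR-541-3p, so neighbours in the region differed between the times in opposite directions. The miR-290-295 cluster had 6 members of 14 probes, and all 6 were higher at 72 h than at 48 h, by 0.0039 to 2.08. Of 7 probes whose loci overlap structural RNAs, 5 were members, with net changes from 0.19 to 1.82, where 149 of all 335 members had a net change above 0.

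Many marker probes were dim. Of 21 probes for intestinal epithelium, 15 were at 50 on no knockdown array, among them miR-192-5p, miR-194-5p, miR-200a-3p, miR-200b-3p and miR-429-3p, and 4 were members. These 4 were miR-147-3p, miR-375-3p, miR-200c-3p and miR-141-5p, the last 2 near the floor at 7.74 to 8.27. Few epithelial markers were thus measurable in cells labelled as colorectal cancer. The summed intensity of the epithelial probes, like the sums below not scaled between arrays, was 800, 351 and 2136 in the knockdown line. It was 664, 978 and 1010 in the control line, and miR-147-3p, at 8.67, 8.07 and 10.26 in the knockdown line, stood out. Of 14 blood cell probes, 8 were at 50 on no knockdown array, including miR-223-3p, miR-451a and miR-144-3p, and 4 were members. Of these miR-142-3p, a miRNA of blood cells, was bright, with intensities of 880, 2054 and 884 in the knockdown line and 1754, 1008 and 1158 in the control line. miR-142-5p had 37.5, 427 and 407 in the knockdown line and 157, 857 and -292 in the control line. The blood cell probes had summed intensities of 1272, 2727 and 1771 in the knockdown line and 2405, 2323 and 1687 in the control line. Of the mesenchymal probes 5 of 9 were members and 1 was at 50 on no knockdown array. Their unscaled sum was 2075, 5408 and 1552 in the knockdown line and 3601, 5442 and 4282 in the control line. After normalisation miR-199a-5p stood at 10.80, 10.85 and 9.89 in the knockdown line, so it hardly differed between 24 and 48 h. Other mesenchymal probes did differ. The probe shared by miR-199a-3p and miR-199b-3p, no member, had intensities of 38, 1066 and -11, beside 257.5, -27.25 and 497 in the control line. miR-143-3p, also no member, had -14, 469 and -40.5, beside 68.5, -60.75 and 590. The member miR-199b-5p was lowest at 48 h in the knockdown line, at 76, 1.75 and 78.25. The neuron, muscle and liver list held 6 of 22, among them miR-137-5p, and 13 of the 22 were at 50 on no knockdown array. The arms opposite to its members miR-137-5p, miR-1a-1-5p, miR-122-3p, miR-124-3p and miR-206-3p were at 50 on none of the 6 arrays. miR-9-5p, opposite to miR-9-3p, reached 50 on 1 knockdown array and 2 control arrays. The part of any other cell type in the time courses was not tested, and in bulk cultures fewer cells of a type cannot be told apart from less RNA per cell.

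The miR-29 family, repressors of collagen genes, had 5 members of 7 probes with a net median of -0.42, and miR-29a-3p stood at 10.90, 9.79 and 10.08. The miR-23/27/24 clusters had 7 members of 11 probes. At 48 h 3 were higher by at least 2-fold, beside 20.6% of all probes, and 1, miR-24-1-5p, was lower, beside 6.93%. There miR-27b-3p stood at 6.85, 8.92 and 7.81 and miR-23a-3p at 9.70, 10.27 and 8.26. The 24 h value of miR-27b-3p came from an intensity below 50. Among probes for miR-99, miR-125, miR-10 and miR-100, 8 of 15 were members, with a net median of -0.53, and miR-10b-5p was at 8.42, 10.14 and 7.80. Of the 8 hypoxia and stress probes 6 were members, with median changes of 0.52 and then -0.69, and miR-132-5p stood at 7.27, 7.77 and 9.07. Its 24 h value likewise came from an intensity below 50. The family of miR-148 and miR-152 had no member among its 6 probes.

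Tests were run with limma over all 6 arrays, in which the spread about the fitted time terms in both lines is shared. They covered 372 mouse probes at 50 or more on at least 3 of 6 arrays, 321 of them members, so 14 members were not tested. The slope per day in the knockdown line gave no call at an adjusted p of 0.05 by Benjamini-Hochberg (0% of 372 probes), and 14 probes, 3.76%, had an unadjusted p under 0.05. The largest member estimate among the smallest p-values was 1.72 ± 0.50 (SE) log2 units per day for miR-744-5p, with a limma adjusted p of 0.922. For miR-3084-5p the slope was -1.52 ± 0.46, also at an adjusted p of 0.922. The difference in slope between lines gave 0 calls and 9 unadjusted, 2.42%, with 2.06 ± 0.70 for miR-744-5p and an adjusted p of 0.931.

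The departure of 48 h from the mean of 24 and 72 h gave 0 calls in the knockdown line, and 41 unadjusted, 11% of the 372, of which 32 were members. Its smallest adjusted p in limma was 0.136, for miR-17-5p, which passed 50 on too few knockdown arrays to be a member. The difference in departure between the lines gave 0 calls and 67 unadjusted, 18%, of which 49 were members. The smallest adjusted p was 0.0713, for miR-3096a-3p, with an estimate of 7.62 ± 1.10. With the time point as a block, which pairs the lines by time, 13 probes passed, all upward and 8 of them members, with an adjusted p of 4.3e-06 in limma for miR-3096a-3p. In these departure tests the 24 and 72 h arrays of a line stand in for replicates. The spread thus comes from the difference between these 2 times, and in the block from how the line difference changed between them. No p-value here rests on replicate arrays. The term for 48 h was chosen with earlier results of these data known. The departures had opposite signs in the lines for 63.9% of members. In 142 members the departure was upward in the knockdown line and downward in the control line, and in 72 members the reverse. A departure of at least 1 log2 unit upward was seen in 59 members in the knockdown line and 21 in the control line, and downward in 25 and 49. In these tests the median 95% interval reached 1.02 log2 units per day to either side of the slope and 1.44 log2 units to either side of the departure, so smaller changes could not be shown by this design.

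The counts depended on the scaling, on the time block and on which array was left out. With no scaling between arrays 17 probes passed for the departure in the knockdown line, all upward, among them miR-3096a-3p, miR-3084-3p, miR-16-5p and miR-20a-5p. With the other small RNA scaling 29 passed, 3 upward and 26 downward, and miR-3096a-3p and miR-3084-3p were among the 3. For the difference in departure that scaling gave 9 upward and 109 downward calls, whereas with no scaling all 29 calls were upward. Without the 24 h knockdown array the knockdown term compares 48 h with 72 h alone, so it is no longer the same departure. Its estimates were then 2.70 for miR-16-5p and 3.75 for miR-3084-3p, their 48 to 72 h changes with the sign reversed. Without the 72 h knockdown array it compares 48 h with 24 h alone. The control term of the difference changes alike when a control array is left out. The counts that follow are for the departure in the knockdown line and then for its difference. Leaving out the control array of 24 h gave 3 and 17, and leaving out that of 72 h gave 5 and 11. The departures could not be fitted without an array of 48 h. For the slopes, 1 probe, miR-467a-5p, which is no member, passed in the knockdown line without the control array of 48 h, and for the slope difference without that array or either of the knockdown arrays of 48 and 72 h.

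**Figure D4:**
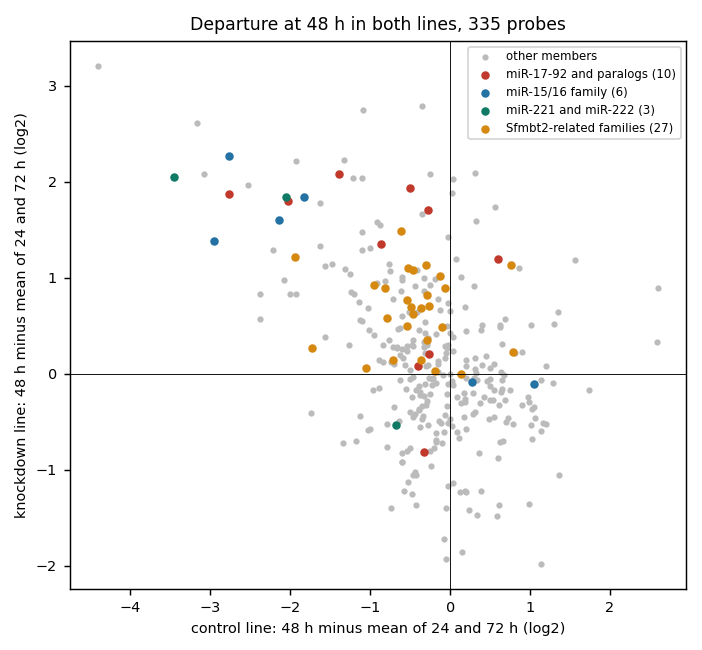
Departure of the 48 h signal from the mean of 24 and 72 h in the control line (horizontal axis) against the knockdown line (vertical axis), in log2 units, for the 335 members with 4 families coloured. The miR-17-92, miR-15/16, miR-221 and miR-222 members lie mostly in the upper left, high at 48 h in the knockdown line and low in the control line, and 63.9% of members have opposite signs.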

How the data were processed

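Total RNA of 6 CT26 samples was labelled with Hy3 and hybridised to locked nucleic acid miRNA arrays in 1 colour, per the labels' protocols. The authors deposited a foreground and a background-subtracted intensity for each spot, unscaled between arrays per the file headers, and a ratio per probe. Checked against the intensities, 100% of the filled ratios were the median over a probe's spots of foreground minus background, divided by an array constant (313.5 to 397), at a relative tolerance of 1e-06. Column medians of the ratio were 0.358, 0.466 and 0.304 on the knockdown arrays of 24, 48 and 72 h and 0.259, 0.514 and 0.307 on the control arrays. Values were linear and uncentred with no reversed direction, and how the dividing numbers were chosen is not known. Scanner and software are not given in the sources used here.

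Background correction used limma 3.58.1 (R 4.3.3), method normexp, offset 50. Values were transformed to log2, averaged over 4 spots and quantile normalised over mouse, viral and unnamed probes. Tests used lmFit and eBayes with trend and robust estimation. They were also run on simulated data, whose noise was fixed and not taken from these arrays, so that run does not show how the tests behave here. With 6 arrays, their number limits the precision. Members, lists and tests were chosen with earlier results of these data known. Named miRNAs were the 15 brightest members, the 8 largest changes per interval and direction among members at 50 or more on both arrays, up to 3 per time pattern, up to 2 per list and direction, and the 3 smallest p-values per test. Alternatives covered background, offset, scaling, probe set, the ratios, the filter, the fold threshold, the variance model, a time block and leaving out arrays.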

Additional observations from a re-analysis of the deposited data

Results flagged for a closer look

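Signal was also seen in probes that enter no comparison. Of 23 probes for snoRNAs, spliceosomal RNAs and 5S rRNA, 10 were above 50 and above every negative control on all 3 knockdown arrays. SNORD68, a small nucleolar RNA, had intensities of 595, 5319 and 199 in the knockdown line and 1573, 252.5 and 3872 in the control line. SNORD3@ had 3146, 8569 and 2450 in the knockdown line and 3686, 1510 and 2808 in the control line. Both were highest at 48 h in the knockdown line and lowest at 48 h in the control line, as were the miRNA families above, and the part of this shared course in the miRNA results was not tested. Of 57 viral miRNA probes, 10 met the same rule, and of 2255 unnamed probes, 396 did.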

How the results depend on the processing

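The shares of the 335 members past 2-fold, given as higher and lower for 24 to 48 h, 48 to 72 h and 24 to 72 h, moved by over 1.5 times as follows. Plain subtraction with a floor of 1 gave 29.9% and 20.3%, 21.2% and 40.6%, 28.1% and 37.9%. The authors' deposited ratios gave 30.1% and 11.6%, 20.3% and 32.2%, 26.9% and 23.9%. Scaling to other small RNA probes gave 4.18% and 46.6%, then 42.7% and 10.1%, and spike-in scaling 3.88% and 47.8%, 31.6% and 11.9%, and 31.0% lower net. The lower share from 24 to 48 h was 9.25% with median scaling, 3.58% with cyclic loess and 11.3% with quantile normalisation over mouse probes. At 1.5-fold the shares were 26.6% and 19.1%, 35.8% lower, then 23.6% and 32.2%, and at 4-fold 3.58% and 0%, 3.58% and 6.87%, 2.69% and 1.49%. The main 48 h departure calls of 0 became 7 with median scaling, 3 with loess, 17 with no scaling and 29 with the other small RNA scaling, and the departure difference calls 20, 15, 29 and 118, with 109 of the 118 and 1 of the 20 downward, and they were 1 under spike-in scaling, 26 with the ratios and 13 with time as a block. Leaving out an array gave 0 to 1 slope calls, 0 to 1 slope difference calls, 0 to 21 departure calls and 0 to 44 departure difference calls. The slope call came without the control array of 48 h, and the slope difference call without that array or without the knockdown array of 48 or 72 h, in each case for miR-467a-5p, which is no member. The causes were not tested. The departures could not be fitted without an array of 48 h, nor could the slope and the departure of the knockdown line with time as a block, so these were not run. Of the 55 miRNAs run under 7 alternatives, the 97 changes of 2-fold or more kept their sign, as did 10 such list medians under 5 scalings. Without that choice by size, the sign held in 38 of 55 changes from 24 to 48 h, 41 from 48 to 72 h and 44 from 24 to 72 h. Spike-in and other small RNA scaling shifted members downward on the first step and upward on the second. Falls on the first step and rises on the second were thus favoured to keep their sign there. The labels number no replicates, so the lines were paired by time alone, in the time block above. Where a probe is below 50 on 1 side of a step, only a bound on the size holds, and 98 members have such a side. Their signals and the 2-fold counts are nevertheless given at the measured values unless "at least" is written.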
